A study of Arabidopsis thaliana with 24 samples.

Results

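The family of UDP-glucosyltransferases was measured here through 47 Arabidopsis genes, those whose symbol in the array annotation is UGT followed by a digit. They were 47 of the 22746 features tested, each read by 1 probe set of its own, and they fell into 11 numbered subfamilies. UGT71 held 9 of them, UGT76 held 8, UGT73 held 7, UGT84 and UGT85 held 5 each, UGT72 held 4, UGT74 and UGT78 held 3 each, and UGT80, UGT87 and UGT88 held 1 each. In 3 further cases a UGT gene shared its probe set with another gene, and these probe sets were not counted as members.

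UGTs are enzymes that move a sugar, usually glucose from UDP-glucose, onto small molecules, which makes them more soluble and often inactive or ready for storage in the vacuole. In plants their substrates include hormones such as cytokinin, auxin, abscisic acid and salicylate, phenolics such as flavonols, sinapate and the lignin precursors called monolignols, and foreign chemicals taken up from the soil. Subfamilies are defined by protein sequence, and members of 1 subfamily can act on different substrates.

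The plants were Arabidopsis thaliana accession Col-0 with no mutation or transgene named, grown on Murashige and Skoog medium in 16 h days. On day 16, at 3 h into the light period, bleomycin at 1.5 µg/ml and mitomycin at 22 µg/ml, both of which damage DNA, were added together to the medium of every group. Shoots and roots were taken at 0.5, 1, 3, 6, 12 and 24 h, with 2 ATH1 arrays per organ and time, 24 arrays in 12 groups. Nothing in the labels states that paired arrays of 1 group stem from separate plants or cultures. P-values therefore measure only how far these samples spread, and that spread may be technical. Untreated plants were not analysed here, and 0.5 h served as the baseline. The 6 times lay 3.5, 4, 6, 9, 15 and, on the next day, 3 h after lights on. The 1 h and 24 h samples were therefore close to the baseline in hour of day, while from 3 to 12 h duration of exposure and hour of day cannot be told apart.

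Signals are the deposited linear intensities, in arbitrary units that cannot be set against each other between probe sets. Changes are differences of log2(signal + 16), which understate the change of dim genes, and are given ± their standard error. A fold printed beside a change is the fold of signal + 16, which is smaller than the fold of the signals themselves. A member was called at an adjusted p below 0.05 in limma, with the Benjamini-Hochberg adjustment over all 22746 probe sets. Of the 47 members, 14 lay in the dimmest 30% of probe sets by mean, and 13 had a mean signal below 20 in both organs, where a signal cannot be told from background. Arrays of 1 group correlated with each other at 0.984 to 0.993. The summed signal of the 3 measured leaf photosynthesis markers was 9416 to 19724 in shoots and 235 to 481 in roots, and that of the 3 measured root markers was 399 to 812 in shoots and 3014 to 3797 in roots. All 3 genes of each list differed between the organs in the direction of the labels. Over all probe sets, 2 shoot arrays, the first at 12 h and the second at 24 h, lay closest to the roots, with a mean correlation of 0.714 and 0.711 to the root arrays against 0.678 to 0.692 for the other 10. On these 2 arrays the root markers summed to 796 and 486, within the 399 to 812 of the other 10, and the photosynthesis markers to 9416 and 12841 against 11657 to 19724. The fit was also run without these 2 arrays, and why they lay closer to the roots was not tested. The counts of members called in shoots at 12 and 24 h are given with and without these 2 arrays. Changes of single genes in shoots at 12 h rest partly on the first 12 h array and are given only with it.

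The organs are compared first, and whether the members differed more by organ or by time was not tested. Compared over all times, 12 members were higher in shoots and 26 were higher in roots, while 9 were not called. Of all probe sets, 27.6% were higher in shoots and 49.2% were higher in roots, so the array as a whole also leaned towards roots. The median difference, shoots minus roots, was -0.23 over the members and -0.11 over all probe sets. With each array centred on its median, which moved the median of all probe sets by 0.21, the members split into 21 higher in shoots and 23 higher in roots. With quantile normalization over all arrays, which moved it by 0.11, they split 16 to 23. In 23 members the 12 shoot arrays did not overlap the 12 root arrays, beside 35.1% of all probe sets. A difference of more than 1 log2 unit was found in 21 members, 7 of them higher in shoots, beside 10.7% of all probe sets, and 14 higher in roots, beside 12.9%. In these bulk samples fewer cells of a type and less RNA per cell cannot be told apart.

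Several members of subfamilies UGT76, UGT72, UGT73 and UGT71 were far brighter in roots than in shoots. Where the shoot signals were low, the size and order of these differences depend on the pseudocount. UGT76B1 (AT3G11340), which glucosylates isoleucic acid and salicylate and is known as a regulator of defence, had root signals of 254 at the lowest, 437 at the median and 600 at the highest of 12 arrays. Its shoot signals were 0.138, 0.649 and 17.4 in the same order, and the difference, shoots minus roots, was -4.56 ± 0.11 (adjusted p 1.77e-17). The organs did not overlap, and the 2 highest shoot values, 13.1 and 17.4, were those of the 2 shoot arrays closest to the roots, with the other 10 at or below 2.15. UGT72E2 (AT5G66690), which glucosylates the monolignols coniferyl and sinapyl alcohol, ranged from 470 through a median of 843 to 1405 in roots and from 16.5 through 28 to 35.1 in shoots. Its difference was -4.25 ± 0.08 (adjusted p 7.74e-19). With a pseudocount of 1 the differences were -7.44 for UGT76B1 and -4.85 for UGT72E2, and with a pseudocount of 64 they were -2.86 and -3.26, in the opposite order. UGT73B4, a stress-responsive enzyme able to conjugate the explosive trinitrotoluene, differed by -4.14 and its subfamily relative UGT73D1 by -3.67. UGT71C1 at -2.95, UGT73B5 at -2.47 and UGT71C3 at -2.102 also differed by more than 2 log2 units towards roots.

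UGT88A1, UGT76E11 and UGT78D1 stood at the other end. UGT88A1 (AT3G16520) had shoot signals of 413, 994 and 1421 at the lowest, the median and the highest array, against 47, 76.4 and 120 in roots. It was 3.29 ± 0.06 log2 units higher in shoots (adjusted p 4.87e-19). UGT76E11 (AT3G46670) ranged from 45.2 through 92.7 to 116 in shoots and from 1.12 through 3.91 to 6.12 in roots, a difference of 2.32 ± 0.05 (adjusted p 8.46e-18). UGT78D1, which attaches rhamnose to flavonols, was higher in shoots by 2.16 and UGT71B1 by 1.88. In none of these 4 did any shoot array fall to the level of a root array. UGT84A3 at 1.76, UGT85A5 at 1.60 and UGT72B3 at 1.16 complete the members more than 1 log2 unit higher in shoots.

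**Figure D1:**
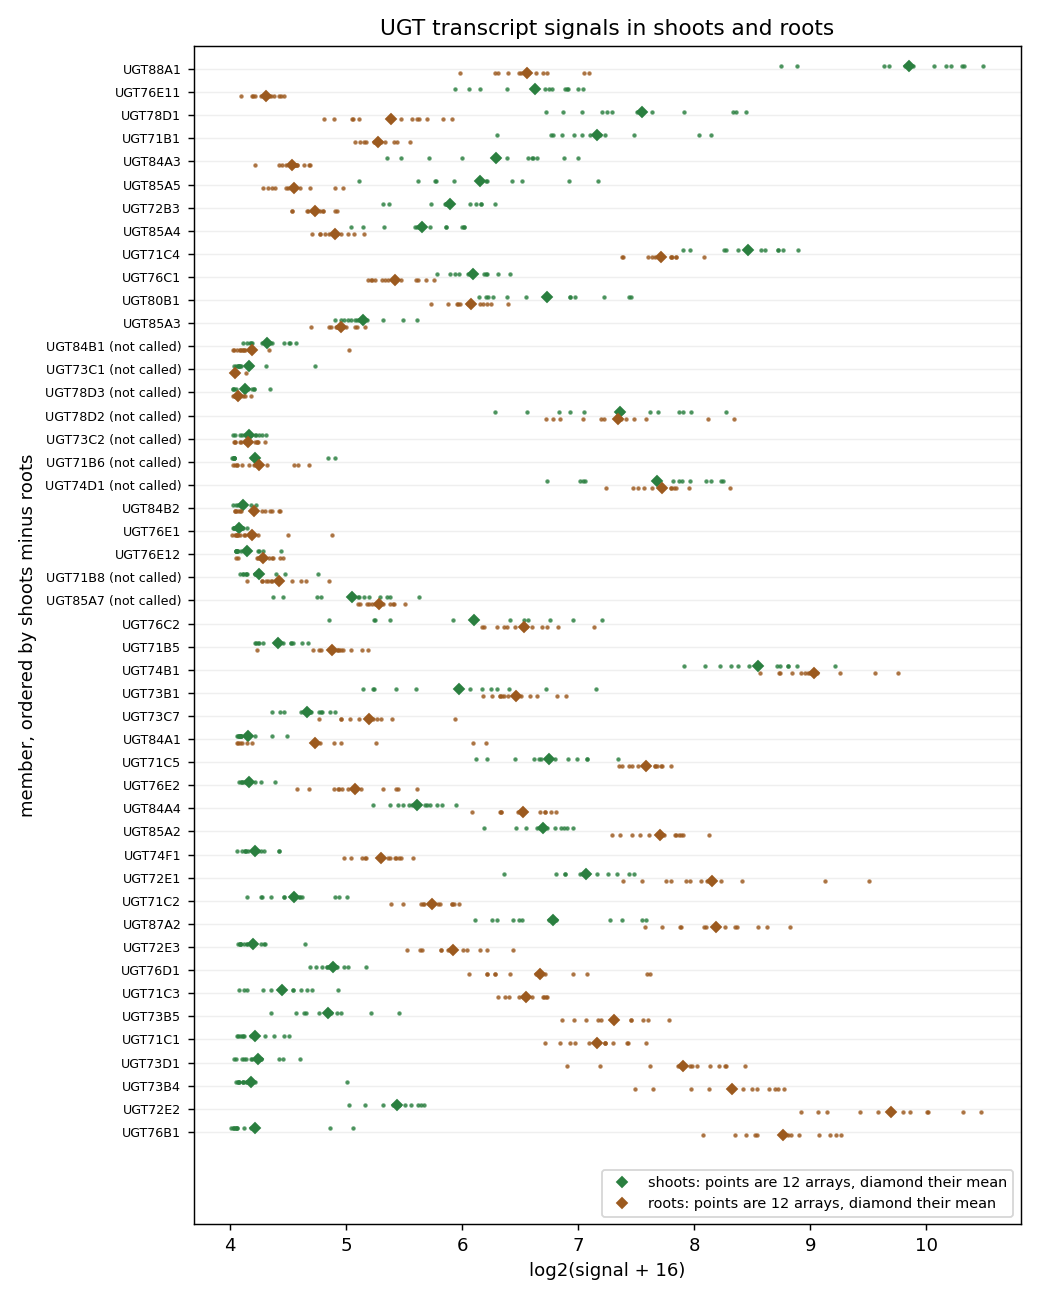
Signals of the 47 UGT genes as log2(signal + 16) on the horizontal axis, 1 row per gene, ordered by the difference between organs; small points are the 12 shoot arrays (green) and 12 root arrays (brown) and diamonds are their means. UGT88A1 lies at the shoot end with a difference of 3.29 and UGT76B1 at the root end with -4.56, and the rows marked as not called are the 9 members whose organs did not differ at adjusted p below 0.05.

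Most subfamilies with several members held calls in both directions, but none of the 7 UGT73 or 3 UGT74 members was called higher in shoots. In UGT73 5 members were called higher in roots and 2, UGT73C1 and UGT73C2, were not called and had no signal above 10.5. With each array centred on its median both were called higher in shoots, by 0.32 and 0.22, and with a pseudocount of 1 UGT73C1 by 0.72. UGT72 held 3 root-preferring members, UGT72E1, UGT72E2 and UGT72E3, all known for glucosylating lignin precursors, and 1 shoot-preferring member, UGT72B3. UGT76 split into 2 higher in shoots and 6 higher in roots, UGT71 into 2 and 5, UGT84 into 1 and 3, and UGT85 into 3 and 1. Some of these calls came from members with a mean signal below 20 in both organs. They were UGT76E1, UGT76E2, UGT76E12, UGT71B5, UGT84A1 and UGT84B2, called higher in roots, and UGT85A3, called higher in shoots. UGT76E1 changed sign, to 0.09, with each array centred on its median. In UGT78 only UGT78D1 was called. UGT78D2, the flavonoid 3-O-glucosyltransferase, differed by 0.02 ± 0.05 with signals of 62 to 293 in shoots and 89.7 to 309 in roots, and UGT78D3 stayed at or below 4.3 on every array.

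Many UGT genes lie next to each other in the genome. By gene order in the TAIR10.1 annotation, 31 of the 47 members sat in 13 clusters in which neighbouring members had at most 3 protein-coding genes between them, giving 18 neighbouring pairs. Of these pairs 5 preferred the same organ, 7 preferred opposite organs, and in 6 at least 1 member was not called. No share for other pairs of genes was computed, so these counts do not set neighbours apart from unrelated members. The examples that follow are all opposite pairs. On chromosome 1 the adjacent UGT71C5, which glucosylates abscisic acid, UGT71C4 and UGT71C3 differed by -0.84, 0.75 and -2.102, shoots minus roots. On chromosome 4 the adjacent UGT84A1, UGT84A3 and UGT84A4, whose products are glucose esters of sinapate and related acids, differed by -0.58, 1.76 and -0.92. Root signals of UGT84A1 were 11.3 to 57.8 from 3 to 12 h and at or below 2.19 at the other times. Its shoot signals were at or below 6.44. On chromosome 5 the adjacent cytokinin N-glucosyltransferases UGT76C2 and UGT76C1 differed by -0.43 and 0.68. On chromosome 3 UGT76E12 differed by -0.14, from signals no higher than 5.9, and UGT76E11, with 1 gene between them, by 2.32. The pairs were described after their values were seen, and near-identical neighbours could share hybridization.

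Over time, 23 of the 47 members varied in shoots and 16 varied in roots by the limma F-test over the 6 times, with 8 varying in both. Of all probe sets 40.4% varied in shoots and 16.3% in roots, and the share varying in both was not computed. Among the members that varied in shoots, the highest group mean came at 0.5 h in 6, at 1 h in 3, at 3 h in 1, at 6 h in 4, at 12 h in 6 and at 24 h in 3. In roots it came at 0.5 h in 4, at 3 h in 2, at 6 h in 1, at 12 h in 5 and at 24 h in 4. No single time gathered the family's maxima in either organ.

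In shoots the first step, from 0.5 to 1 h, already moved 9 members. Higher were 4, with 4.16% of all probe sets higher, and lower were 5, with 4.59% of all probe sets lower. At 3 h there were 4 higher and 3 lower, beside 5.66% and 6.61% of all probe sets. At 6 h there were 8 higher and 6 lower, beside 9.83% and 11%, and at 12 h 10 higher and 7 lower, beside 14% and 14.8%. At 24 h, back near the hour of day of the baseline, 7 were higher and 6 lower, beside 8.85% and 10.1%. The median change at 24 h was -0.01 over the members and -0.05 over all probe sets. From 1 to 24 h, 5 rose and 4 fell, beside 7.29% and 9.29%. Calls were most frequent at 12 h among the members and among all probe sets. Without the 2 shoot arrays closest to the roots, the 12 h count was 8 higher and 5 lower, the 24 h count 6 higher and 7 lower, and the count from 1 to 24 h 2 higher and 4 lower.

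In roots the first step moved 1 member, the dim UGT76E1, and none rose. Of all probe sets 0.207% were higher and 0.264% lower at 1 h. At 3 h there were 5 members higher and 5 lower, beside 2.95% and 2.41% of all probe sets. At 6 h 7 were higher and 3 lower, beside 3.21% and 2.63%, and with arrays centred on their medians this split was 7 to 6. At 12 h 8 were higher and 4 lower, beside 5.1% and 4.55%, and at 24 h 9 were higher and 3 lower, beside 6.4% and 6.68%. From 1 to 24 h, 5 rose and 1 fell, beside 4.14% and 4.83%. The median change at 24 h was 0.09 over the members and 0.02 over all probe sets. As shares of the 47 members, the rises in roots came to 10.6%, 14.9%, 17% and 19.1% at 3, 6, 12 and 24 h, and the falls to 10.6%, 6.38%, 8.51% and 6.38%.

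**Figure D2:**
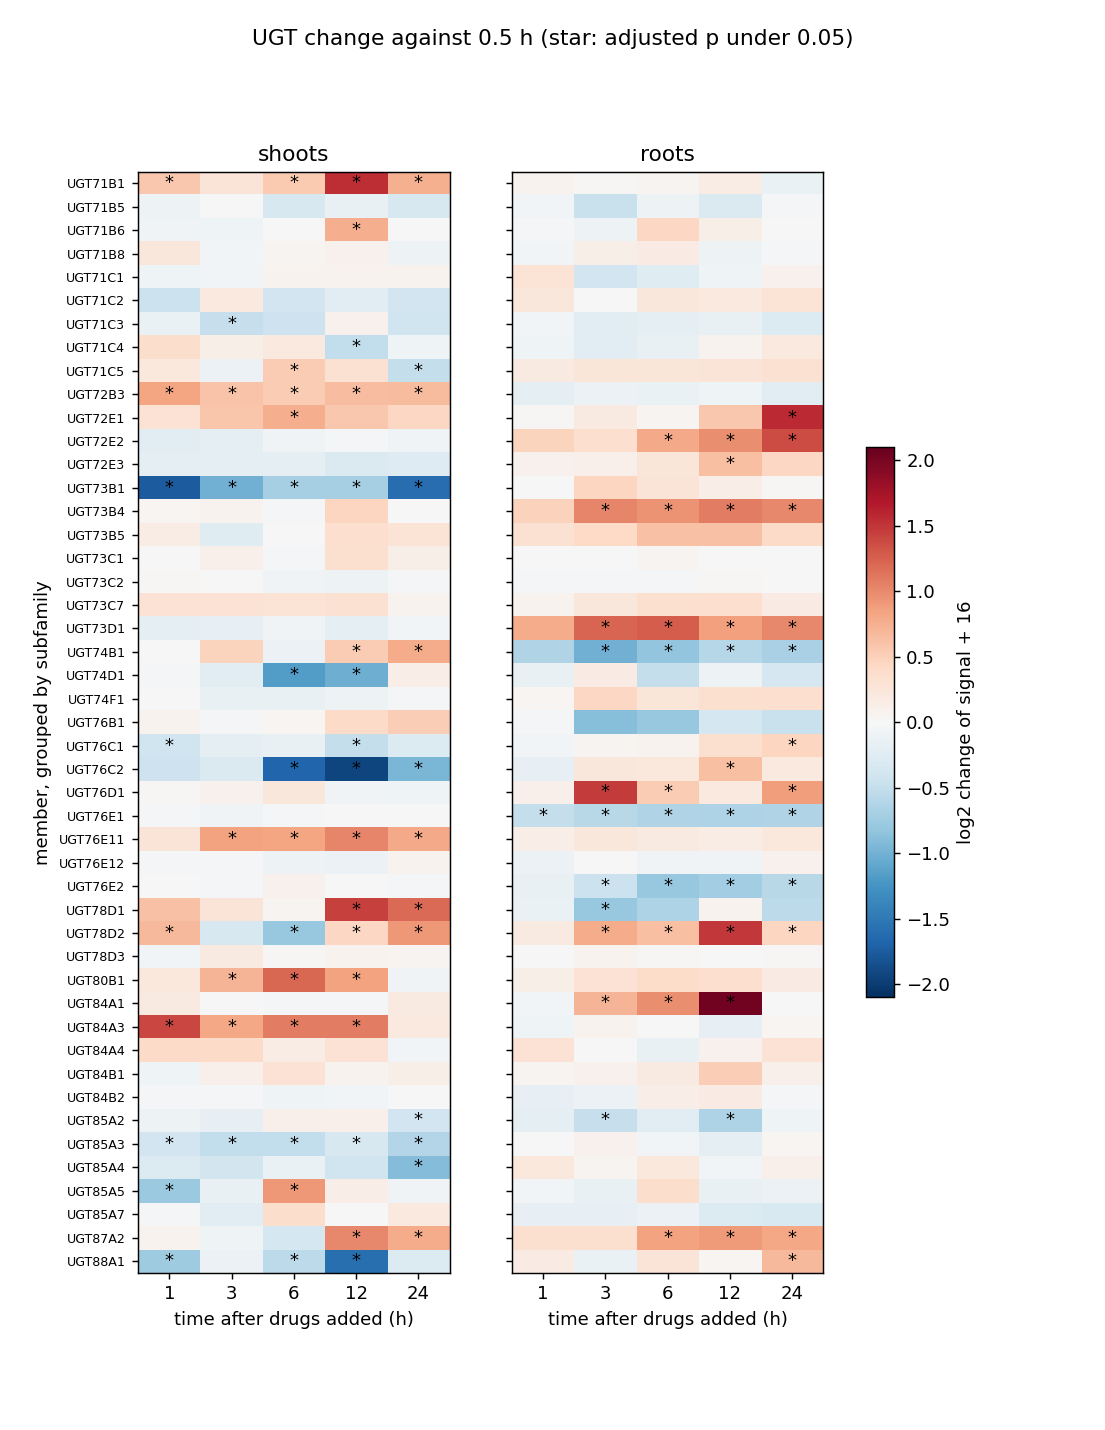
Change of the 47 UGT genes against 0.5 h, as the difference of log2(signal + 16), by time after the drugs were added, with shoots and roots side by side and genes in rows by subfamily; colour gives the size and direction of the change. UGT84A1 at 12 h in roots has the largest rise, 2.02, and UGT76C2 at 12 h in shoots the largest fall, -1.93.

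UGT72, the subfamily of monolignol and xenobiotic conjugation, held members that changed late in roots and 1 that changed early in shoots. UGT72E1 (AT3G50740), active on coniferyl and sinapyl aldehydes, had root signals of 151 and 261 at 0.5 h, 206 and 200 at 1 h, 234 and 228 at 3 h, 251 and 172 at 6 h, 285 and 324 at 12 h, and 544 and 710 at 24 h. Both 24 h arrays were above all earlier ones. The rise at 24 h was 1.57 ± 0.23 (2.96-fold, adjusted p 0.000236), and no earlier time was called in roots. UGT72E2 had root signals of 470 and 549 at 0.5 h, 673 and 753 at 1 h, 812 and 521 at 3 h, 914 and 875 at 6 h, 1019 and 1013 at 12 h, and 1405 and 1262 at 24 h. It was called from 6 h on, with changes of 0.80, 0.98 and 1.36 ± 0.19 at 6, 12 and 24 h (adjusted p 0.000172 at 24 h). The 24 h arrays of UGT72E2 lay above those of every earlier time. UGT72E3, which acts on the same monolignols, was called once, at 12 h in roots, with 0.62 ± 0.17, and had a change of 0.44 at 24 h that was not called. The F-test over time did not call UGT72E3 in roots (adjusted p 0.0821).

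In shoots the same 3 genes were at most weakly changed, and UGT72B3 was the subfamily's responder. UGT72E1 was called higher at 6 h alone, by 0.76 ± 0.23, and the F-test over time did not call it (adjusted p 0.121). UGT72B3 (AT1G01420), a relative of the xenobiotic-conjugating UGT72B1, had shoot signals of 25.4 and 23.9 at 0.5 h, 62 and 51.1 at 1 h, 37.1 and 55.6 at 3 h, 44.1 and 42.2 at 6 h, 53.6 and 41.8 at 12 h, and 42.5 and 55.7 at 24 h. Every later array was above both at 0.5 h, and UGT72B3 was called at all 5 times. Its change was largest at 1 h, 0.83 ± 0.16 (adjusted p 0.00218), and was 0.67 ± 0.16 at 24 h (adjusted p 0.00604). The 24 h call was lost without the second 24 h array, which was 1 of the 2 closest to the roots. With 1 h as the baseline the 24 h change of UGT72B3 was -0.16 and not called.

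UGT73 held 1 member that fell in shoots, called lower at all 5 times, and 2 that rose in roots from 3 h on. UGT73B1 (AT4G34138), of a subfamily whose members glucosylate flavonols and respond to stress, had shoot signals of 126 and 89.6 at 0.5 h, 19.5 and 21.5 at 1 h, 59.9 and 32.7 at 3 h, 56 and 62.8 at 6 h, 51.1 and 68.7 at 12 h, and 27.2 and 21.8 at 24 h. Both arrays at 0.5 h stood above every later array, and the lowest values came at 1 and 24 h. The changes were -1.75 ± 0.21 at 1 h (3.36-fold lower, adjusted p 1.59e-05), -1.01 at 3 h, -0.70 at 6 h, -0.70 at 12 h and -1.60 ± 0.21 at 24 h (adjusted p 3.04e-05). From 1 to 24 h it did not change beyond the spread, at 0.15. Leaving out the first 0.5 h array or the second 3 h array ended the 3 h call. In roots UGT73B1 stayed between 56.4 and 103 and was called at no time.

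UGT73B4 and UGT73D1 rose in roots by 3 h and stayed high. UGT73B4 (AT2G15490) had root signals of 185 and 163 at 0.5 h, 264 and 236 at 1 h, 358 and 384 at 3 h, 399 and 307 at 6 h, 421 and 347 at 12 h, and 406 and 326 at 24 h. Its changes at 3, 6, 12 and 24 h lay between 0.95 and 1.07, with 1.002 ± 0.21 at 24 h (adjusted p 0.00357). UGT73D1 (AT3G53150) had root signals of 130 and 104 at 0.5 h, 180 and 244 at 1 h, 293 and 292 at 3 h, 282 and 330 at 6 h, 216 and 234 at 12 h, and 265 and 237 at 24 h. Its changes at the same 4 times were 1.22 ± 0.18, 1.28, 0.87 and 1.01 ± 0.18 (adjusted p 0.000347 at 3 h and 0.00108 at 24 h). For both genes all arrays from 1 h on were above both at 0.5 h, and neither was called from 1 to 24 h. For UGT73B4 the 3 h call ended when the second 0.5 h or second 3 h array was left out, and the 24 h call when the first 24 h array was. With a pseudocount of 1 the changes at 3 and 24 h were 1.09 and 1.06 for UGT73B4 and 1.33 and 1.102 for UGT73D1, none of them called. Shoot signals of UGT73B4 were at or below 2.56 on 11 arrays and 16.1 on the first at 12 h, and those of UGT73D1 at or below 8.27.

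The other UGT73 members gave no call over time. UGT73B5, adjacent to UGT73B4, ranged from 100 to 204 in roots with a change of 0.40 at 24 h, and UGT73C7, adjacent to UGT73D1, from 11.2 to 45.3 with a change of 0.17. UGT73C1 and UGT73C2 were at or below 10.5 and 3.89 on every array. The probe set shared by UGT73B2 and UGT73B3, 2 genes of the same stress-linked group that it cannot separate, had mean signals of 91.9 in shoots and 462.2 in roots. It rose by 1.93 ± 0.19 at 24 h in shoots (adjusted p 1.58e-06) and by 0.58 ± 0.19 in roots (adjusted p 0.0499).

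In UGT78, the flavonol glycosyltransferases, 2 of 3 members were higher in shoots at 12 and 24 h. UGT78D1 (AT1G30530) had shoot signals of 101 and 115 at 0.5 h, 166 and 183 at 1 h, 132 and 136 at 3 h, 89.5 and 140 at 6 h, 307 and 332 at 12 h, and 225 and 314 at 24 h. The 4 arrays at 12 and 24 h stood above the 8 earlier ones. The changes were 1.44 ± 0.19 at 12 h (adjusted p 1.9e-05) and 1.19 ± 0.19 at 24 h (adjusted p 0.000308), and the 24 h change was not called against 1 h. In roots UGT78D1 had signals of 41.2 and 33.4 at 0.5 h and 17.3 and 12.1 at 3 h, a fall of -0.80 ± 0.19 (adjusted p 0.0199) that was lost without either array at 0.5 h or the second at 3 h. At 24 h it was -0.55 and not called, but without the second 24 h array it was -0.84 (adjusted p 0.0185).

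UGT78D2 (AT5G17050) moved in both organs but on different schedules. Its shoot signals were 150 and 117 at 0.5 h, 224 and 218 at 1 h, 98 and 106 at 3 h, 62 and 78.5 at 6 h, 181 and 190 at 12 h, and 235 and 293 at 24 h. It rose at 1 h by 0.67 ± 0.13 (adjusted p 0.00185), was -0.79 ± 0.13 below the baseline at 6 h (adjusted p 0.000163) and 0.91 ± 0.13 above it at 24 h (adjusted p 6.43e-05). Its root signals were 94.1 and 89.7 at 0.5 h, 116 and 98.5 at 1 h, 176 and 163 at 3 h, 154 and 150 at 6 h, 263 and 309 at 12 h, and 134 and 131 at 24 h. In roots the largest rise was 1.48 ± 0.13 at 12 h (adjusted p 7.37e-07). At 24 h all root arrays were still above the baseline, with 0.46 ± 0.13 (adjusted p 0.022), but this call was lost when any of the 4 arrays involved was left out. Against 1 h the 24 h change was called in neither organ. UGT78D3, the flavonol arabinosyltransferase, gave no call.

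**Figure D3:**
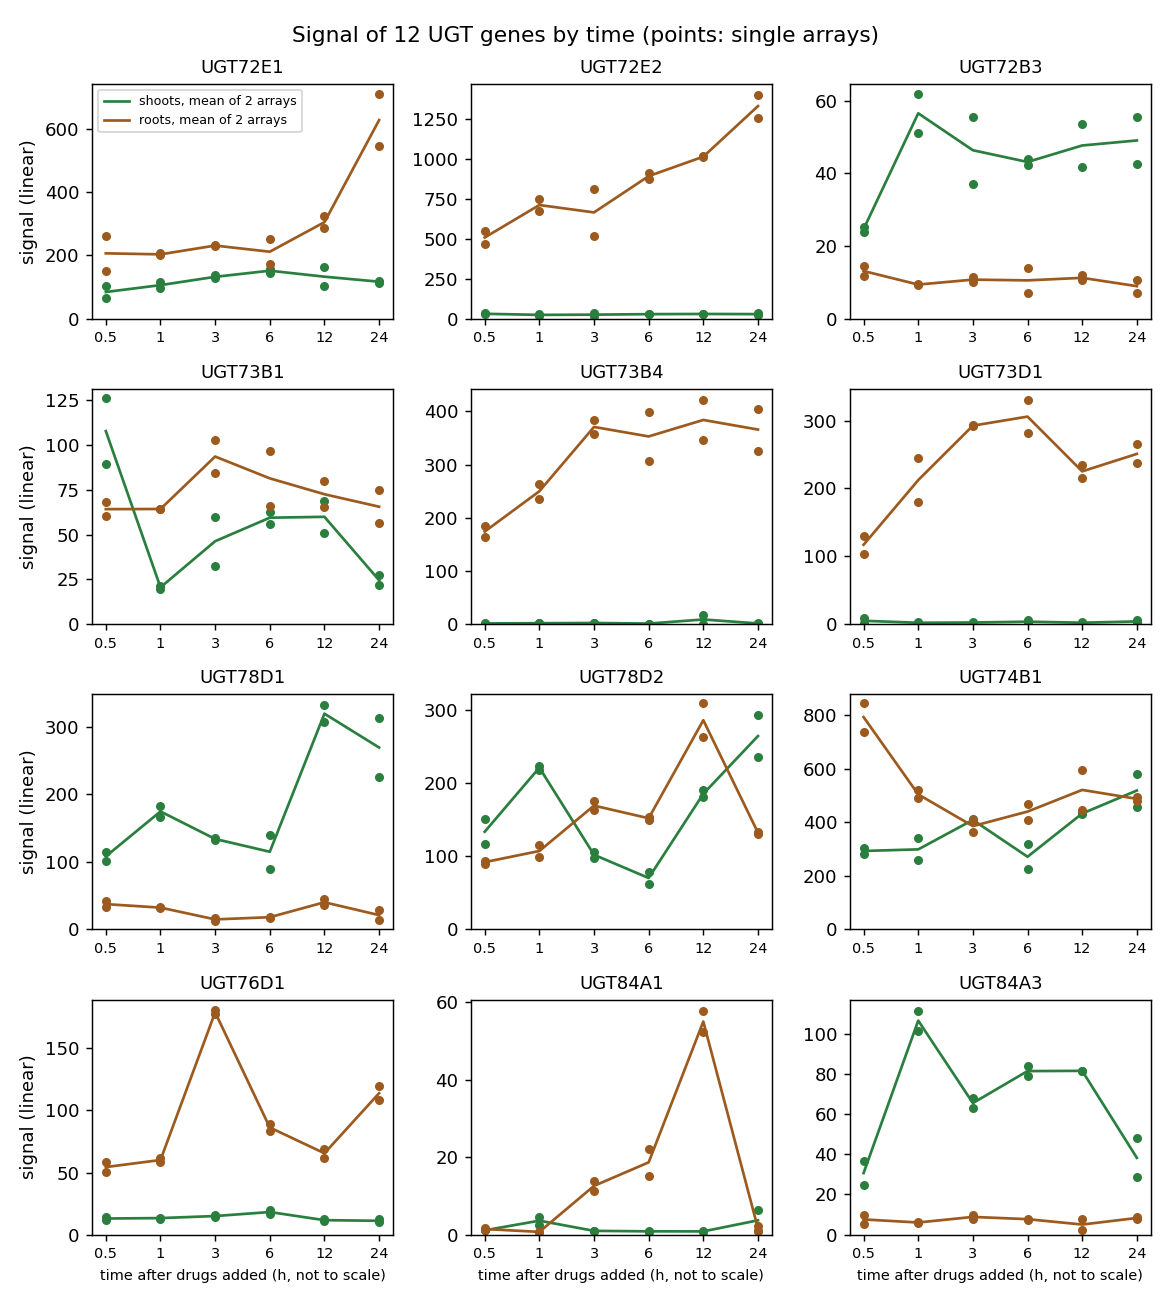
Signals, on a linear scale, of 12 UGT genes by time after the drugs were added, with each point a single array and lines joining the means of 2 arrays for shoots (green) and roots (brown); the time axis is not to scale. UGT72E1 and UGT72E2 in roots are highest at 24 h, UGT76D1 peaks at 3 h with 177 and 181, UGT84A1 at 12 h with 52.2 and 57.8, and UGT73B1 in shoots is highest at 0.5 h.

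UGT76D1 (AT2G26480), which glucosylates dihydroxybenzoic acids made from salicylate, had root signals of 58.2 and 50.6 at 0.5 h, 58.5 and 61.7 at 1 h, 177 and 181 at 3 h, 88.9 and 83.6 at 6 h, 62 and 69 at 12 h, and 108 and 119 at 24 h. It rose by 1.47 ± 0.11 at 3 h (2.77-fold, adjusted p 1.92e-07), was not called at 12 h, and was 0.88 ± 0.11 above the baseline at 24 h (adjusted p 3.33e-05). The arrays at 3 h and at 24 h did not overlap those of any other time. Shoot signals of UGT76D1 were between 9.79 and 20, with no call.

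UGT84A1 and its neighbour UGT84A3, both of which make hydroxycinnamate glucose esters, were each called over time in 1 organ, UGT84A1 in roots and UGT84A3 in shoots. UGT84A1 (AT4G15480), singled out after its values were seen, had root signals of 1.15 and 1.75 at 0.5 h, 0.756 and 0.664 at 1 h, 13.9 and 11.3 at 3 h, 22.2 and 15.1 at 6 h, 52.2 and 57.8 at 12 h, and 2.19 and 1.02 at 24 h. The change was 0.71 at 3 h, 0.98 at 6 h and 2.02 ± 0.11 at 12 h (adjusted p 6.43e-09), and at 24 h the signals overlapped those at 0.5 h. Both signals at 3 h and the second at 6 h were below 20, in the range that cannot be told from background. UGT84A3 (AT4G15490) had shoot signals of 36.5 and 24.8 at 0.5 h, 112 and 102 at 1 h, 67.9 and 63.1 at 3 h, 84 and 78.8 at 6 h, 81.4 and 81.7 at 12 h, and 28.5 and 48 at 24 h. It rose by 1.40 ± 0.16 at 1 h (2.65-fold, adjusted p 1.25e-05) and by 0.82, 1.07 and 1.08 at 3, 6 and 12 h, the 3 h change missing the threshold with a pseudocount of 1 (1.096, adjusted p 0.0503), and fell from 1 to 24 h by 1.20 ± 0.16 on the log2 scale (adjusted p 6.77e-05). UGT84A1 stayed at or below 6.44 in shoots and UGT84A3 at or below 9.78 in roots.

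UGT74B1 (AT1G24100), which makes the desulfoglucosinolate intermediate of glucosinolate synthesis, moved in opposite directions in the 2 organs. Its shoot signals were 282 and 304 at 0.5 h, 339 and 258 at 1 h, 405 and 413 at 3 h, 225 and 318 at 6 h, 433 and 432 at 12 h, and 458 and 579 at 24 h. Its root signals were 847 and 739 at 0.5 h, 519 and 490 at 1 h, 408 and 363 at 3 h, 470 and 410 at 6 h, 597 and 445 at 12 h, and 480 and 495 at 24 h. Both root arrays at 0.5 h were above all later ones. The change at 24 h was 0.78 ± 0.16 in shoots (adjusted p 0.00235) and -0.68 ± 0.16 in roots (adjusted p 0.00956), and the root change was -1.01 ± 0.16 at 3 h (adjusted p 0.000786). Leaving out the first 0.5 h or first 24 h root array ended the 24 h call in roots, as did a 1 h baseline. The auxin glucosyltransferase UGT74D1 fell in shoots at 6 h by 1.17 ± 0.15 and at 12 h by 1.03 ± 0.15 on the log2 scale, and was at 0.14 and not called at 24 h.

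Among the other UGT76 members, UGT76E11 rose in shoots and UGT76C2 fell. UGT76E11 had shoot signals of 50.7 and 45.2 at 0.5 h, 55.1 and 67.9 at 1 h, 105 and 93.7 at 3 h, 91.7 and 104 at 6 h, 112 and 116 at 12 h, and 89.3 and 102 at 24 h. From 3 h on every array was above all 4 earlier ones, with 0.85 ± 0.13 at 3 h (adjusted p 0.00017) and 0.80 ± 0.13 at 24 h (adjusted p 0.000201). With a pseudocount of 1 the changes were 1.03 and 0.98 and just missed the threshold (adjusted p 0.0558 and 0.0515). UGT76C2 (AT5G05860) had shoot signals of 92.3 and 132 at 0.5 h, 79 and 76.4 at 1 h, 108 and 69.1 at 3 h, 22.1 and 25.6 at 6 h, 21.9 and 13 at 12 h, and 53.3 and 44.4 at 24 h. All arrays from 6 h on were below the 6 earlier ones, with -1.93 ± 0.19 at 12 h (3.82-fold lower, adjusted p 4.65e-07) and -0.97 ± 0.19 at 24 h (adjusted p 0.00151), the last not called against 1 h. In roots UGT76C2 was called higher at 12 h alone, by 0.64, and the F-test over time did not call it (adjusted p 0.0692).

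UGT76E1 and UGT76E2, adjacent genes on chromosome 5, fell in roots from low levels. UGT76E1 (AT5G59580) had root signals of 6.6 and 13.4 at 0.5 h, 2.92 and 1.5 at 1 h, 1.41 and 0.976 at 3 h, and at or below 0.806 afterwards. It was called lower at all 5 times, with -0.50 ± 0.09 at 1 h (adjusted p 0.0124) and -0.63 ± 0.09 at 24 h (adjusted p 0.000143), although no signal exceeded 13.4 and the 24 h change was not called against 1 h. The 1 h call was lost when the second array at 0.5 h or either array at 1 h was left out. UGT76E2 had root signals of 27.7 and 33 at 0.5 h and 15.1 and 14.6 at 24 h, a fall of 0.58 ± 0.12 on the log2 scale (adjusted p 0.00377) that was lost without the second array at 0.5 h. UGT76B1, with shoot signals no higher than 17.4, gave no call over time in either organ, with root signals of 581 and 560 at 0.5 h, 254 and 353 at 3 h and 356 and 462 at 24 h.

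UGT88A1 varied within shoots while it stayed far above roots. Its shoot signals were 1421 and 1249 at 0.5 h, 805 and 778 at 1 h, 1173 and 1271 at 3 h, 931 and 884 at 6 h, 459 and 413 at 12 h, and 1134 and 1057 at 24 h. The changes were -0.74 ± 0.15 at 1 h (adjusted p 0.00288) and -1.58 ± 0.15 at 12 h (2.99-fold lower, adjusted p 2.22e-07), and -0.28 without a call at 24 h. Against 1 h the 24 h shoot signals were higher by 0.46, a change that was called. In roots UGT88A1 rose at 24 h, from 74 and 61.9 to 117 and 120, by 0.69 ± 0.15 (adjusted p 0.00439), a call lost without the second array at 0.5 h. UGT87A2, known for a role in flowering time, rose in both organs at 24 h, from 95.9 and 62.8 to 139 and 151 in shoots (0.77 ± 0.17) and from 175 and 195 to 360 and 311 in roots (0.80 ± 0.17). Against 1 h its 24 h change was 0.70 in shoots, which was called, and 0.46 in roots, which was not. UGT87A2 is 1 of 3 members called at 24 h in both organs, with UGT78D2, higher in both, and UGT74B1. The share of all probe sets called in both organs was not computed. The sterol glucosyltransferase UGT80B1 rose in shoots at 3, 6 and 12 h by 0.71, 1.20 and 0.84, and was -0.07 at 24 h.

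Of the 5 UGT85 members 3 were lower in shoots at 24 h and none higher, beside 10.1% of all probe sets lower. Against 1 h, 1 was lower, 1 was higher, UGT85A5 by 0.70, and 3 were not called. Of all probe sets 9.29% were lower and 7.29% higher against 1 h. In roots none was called at 24 h. UGT85A4 (AT1G78270) went from 48 and 48.9 at 0.5 h to 19.5 and 16.9 at 24 h, a change of -0.91 ± 0.15 (adjusted p 0.000396). UGT85A3 (AT1G22380) had 28.9 and 32.9 at 0.5 h and 15.1 and 14 at 24 h, and its fall of 0.62 ± 0.11 on the log2 scale (adjusted p 0.00082) was accompanied by calls at all 4 other times. In both genes the 24 h arrays were below every array at 0.5 h, and against 1 h UGT85A3 was no longer called. UGT85A3 was dim, with a mean signal of 19.9 in shoots and 15.1 in roots. The third was UGT85A2 with -0.40 ± 0.13. UGT85A5 was lower at 1 h, at -0.78 ± 0.22 (adjusted p 0.0382), and higher at 6 h, at 0.90 ± 0.22, and the 1 h call was lost without the second array at 0.5 h or the second at 1 h. That call was also lost with a pseudocount of 1, with either quantile normalization and with each organ fitted alone.

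UGT71, the most numerous subfamily, gave no call over time in roots. In shoots UGT71B1 (AT3G21750) had signals of 94.4 and 63.1 at 0.5 h, 130 and 115 at 1 h, 93.1 and 100 at 3 h, 109 and 134 at 6 h, 266 and 248 at 12 h, and 122 and 162 at 24 h. The 12 h arrays stood above all others, with a change of 1.55 ± 0.16 (adjusted p 1.3e-06). At 24 h the change was 0.75 ± 0.16 (adjusted p 0.00384), lost without the second array at 0.5 h or the second at 24 h, and against 1 h. UGT71C5 rose at 6 h by 0.54 and was lower at 24 h by -0.50 ± 0.13. UGT71B6, which glucosylates abscisic acid, and UGT71C4 were called at 12 h alone, at 0.76 and -0.51. The 12 h signals of UGT71B6 were 13.9 and 12.8, in the range that cannot be told from background. UGT71C3 was lower at 3 h, at -0.48 ± 0.15 (adjusted p 0.0461), from signals of 9.28 and 10.1 to 3.44 and 1.42, and this call was lost when any of the 4 arrays was left out.

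The calls were also counted as early or late in each organ. In shoots 12 members were called at 1 or 3 h. Of these, 6 were also called at 24 h, namely UGT71B1, UGT72B3, UGT73B1, UGT76E11, UGT78D2 and UGT85A3, and the other 6, UGT71C3, UGT76C1, UGT80B1, UGT84A3, UGT85A5 and UGT88A1, were not. Called at 24 h and not at 1 or 3 h were 7, namely UGT71C5, UGT74B1, UGT76C2, UGT78D1, UGT85A2, UGT85A4 and UGT87A2. In roots 10 were called at 1 or 3 h, and 7 of these also at 24 h, namely UGT73B4, UGT73D1, UGT74B1, UGT76D1, UGT76E1, UGT76E2 and UGT78D2. The 5 called in roots at 24 h and not at 1 or 3 h were UGT72E1, UGT72E2, UGT76C1, UGT87A2 and UGT88A1, each of them higher. A missing call at 1 time does not show that a gene was unchanged then, and no test compared early with late sets. The share of all probe sets in each of these classes was not computed, so the counts do not set the family apart from the array as a whole. In shoots 24 members and in roots 30 were called at no time. Among these, UGT71C2 in shoots and UGT74D1 in roots varied by the F-test. UGT72E1 in shoots and UGT72E3 and UGT76C2 in roots were called at single times but not by the F-test.

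The test of the difference itself between organs at 24 h called 18 members. The change was more positive in roots in 12, beside 5.09% of all probe sets, and more negative in roots in 6, beside 4.3%. The largest positive differences, roots minus shoots, were 1.62 ± 0.29 for UGT73B1 (adjusted p 0.00216), 1.43 ± 0.27 for UGT72E2 (adjusted p 0.0034), 1.17 ± 0.27 for UGT76C2 and 1.14 ± 0.33 for UGT72E1. The first and the third come from falls in shoots and the second and the fourth from rises in roots. The largest negative ones were -1.74 ± 0.27 for UGT78D1 (adjusted p 0.000794), -1.46 ± 0.23 for UGT74B1 (adjusted p 0.000757), -0.90 ± 0.22 for UGT72B3 and -0.89 ± 0.23 for UGT71B1. Without the 2 shoot arrays closest to the roots, 10 were more positive and 3 more negative in roots, and of the 8 members just named UGT71B1, UGT72B3 and UGT72E1 were no longer called. Of the same 8, UGT71B1, UGT72B3, UGT72E1 and UGT76C2 lost the call when certain single arrays were left out. At 1 h 3 members were more positive in roots, beside 2.11%, and 2 more negative, beside 1.17%. Of these, UGT73B1 at 1.75 and UGT84A3 at -1.49 differed most, both through a change in shoots.

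**Figure D4:**
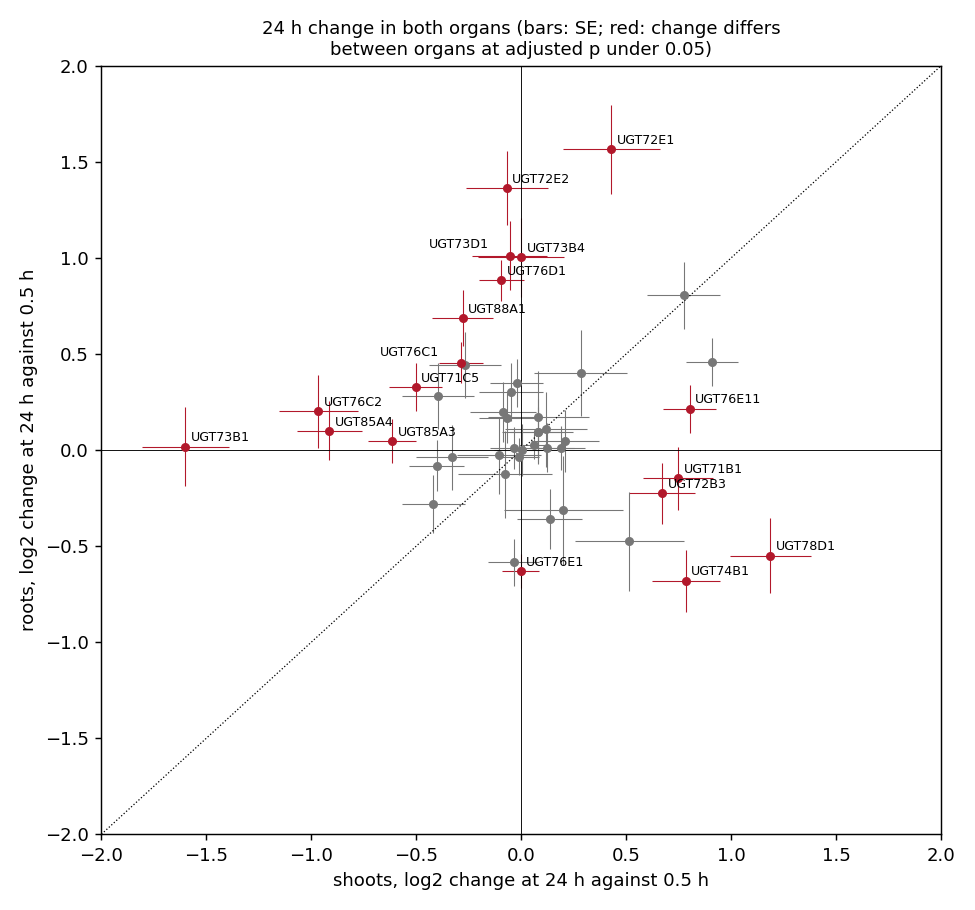
Change at 24 h against 0.5 h of the 47 UGT genes, as the difference of log2(signal + 16), in shoots on the horizontal axis and roots on the vertical axis; bars are standard errors, the dotted line marks equal change, and the 18 red, labelled genes changed differently in the organs at adjusted p below 0.05. UGT72E1 and UGT72E2 lie high in roots at 1.57 and 1.36, UGT78D1 and UGT74B1 lie to the lower right, and UGT73B1 lies at the left with -1.60 in shoots.

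A companion list of the family under another symbol held 19 genes. Some of these, such as UGT88A1 and UGT72E2, were members described above. Of the 19, 5 had a probe set of their own and were not among the members. At 24 h 4 of the 5 were higher in shoots and 1 was higher and 1 lower in roots. GT72B1, which is UGT72B1 and conjugates monolignols and chlorinated xenobiotics, rose in shoots by 1.60 ± 0.15 at 1 h and 1.999 ± 0.15 at 24 h (adjusted p 1.04e-07), and in roots by 0.81 ± 0.15 at 24 h. UGT75C1, the anthocyanin 5-O-glucosyltransferase, rose in shoots at 24 h by 1.47 ± 0.34. IAGLU, which glucosylates auxin, was the 1 lower in roots, at -0.63 ± 0.17. Of 19 flavonoid pathway genes, 3 were measured, and at 24 h 1, the anthocyanin enzyme DFR, rose in shoots, by 1.097 ± 0.26, while none was called in roots. Of 21 genes known from responses to xenobiotics, 5 were measured. At 24 h 2 were higher in shoots, UPOX by 1.65 ± 0.26 and AER by 0.69 ± 0.16, and 1 in roots, UPOX by 1.89 ± 0.26. The flavonoid and xenobiotic lists were largely unmeasured, so they do not describe their pathways, and the list of the family was measured only in part.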

How the data were processed

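RNA from shoots and roots was measured on 24 ATH1 arrays, 2 for each of 12 groups. The deposited values are linear intensity signals, produced by MAS5, as the submitters' processing notes name it, and its version and settings are not given in the sources used here. Precision is limited by the number of arrays. Of 22810 probe sets 64 array controls were left out, and log2(signal + 16) of the other 22746 was fitted with limma 3.58.1 in R 4.3.3, with 12 group means and empirical Bayes variances with a trend (12 residual and 4.91 prior degrees of freedom). P-values were adjusted by Benjamini-Hochberg over all probe sets within each comparison. Figures used Python 3.11.15 and matplotlib 3.10.9, with numpy 2.4.6 and pandas 2.3.3. The fit was tested on simulated data.

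Genes were named by the array's annotation, in which 503 probe sets carried several genes and 8730 were not listed and are unnamed here. Loci and neighbours came from TAIR10.1. Named with values were the 4 called members with the largest change each way between organs, at 24 h in each organ and in the 24 h difference, the 3 largest each way at 1 and 3 h, all of UGT72, UGT73 and UGT78, and the member with the highest signal in each organ. Companion lists gave up to 2 called genes each way. Other members named were chosen after their values were seen. The members and lists were chosen with earlier results of these data known. Other settings tried were a pseudocount of 1 or 64, quantile normalization within an organ or over all arrays, median centring, removal of the dimmest 30% or 50%, variances without trend, each organ alone, a replicate block, other baselines, and arrays left out.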

Additional observations from a re-analysis of the deposited data

Results flagged for a closer look

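These 23 values are differences between organs in the change against 0.5 h, roots minus shoots on the log2 scale, each called by limma at an adjusted p below 0.05 in a test of the difference itself. At 24 h the change was more positive in roots for UGT73B1 at 1.62, UGT72E2 at 1.43, UGT76C2 at 1.17, UGT72E1 at 1.14, UGT73D1 at 1.07, UGT85A4 at 1.01, UGT73B4 at 1.003, UGT76D1 at 0.98, UGT88A1 at 0.96, UGT71C5 at 0.83, UGT76C1 at 0.74 and UGT85A3 at 0.66. It was more negative in roots for UGT78D1 at -1.74, UGT74B1 at -1.46, UGT72B3 at -0.90, UGT71B1 at -0.89, UGT76E1 at -0.63 and UGT76E11 at -0.59. At 1 h it was more positive in roots for UGT73B1 at 1.75, UGT73D1 at 0.97 and UGT88A1 at 0.92, and more negative for UGT84A3 at -1.49 and UGT72B3 at -1.03. UGT73B1, UGT73D1, UGT88A1 and UGT72B3 appear at both times with the same sign, and both times share the 0.5 h arrays. With 2 arrays in a group, no single array could be tested as an outlier.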

How the results depend on the processing

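Of 184 recomputed counts of called members over 17 comparisons, leaving single arrays out aside, 167 stayed within 1.5 times the reported count. Without the dimmest 50% of probe sets, where 20 members remain, the count was 18 for shoots against roots, 5, 2 and 9 in shoots at 1, 3 and 6 h, 0 in roots at 1 h, 3 in roots from 1 to 24 h, 11 and 3 for the organ difference at 24 and 1 h, and 14 for any change in shoots. With each organ fitted alone it was 5 in shoots at 1 h and 0 in roots at 1 h. With a pseudocount of 1 it was 4 in shoots at 3 h and 0, 6 and 7 in roots at 1, 3 and 12 h, and with a pseudocount of 64 it was 2 in roots at 1 h. With quantile normalization over all arrays the 1 h organ difference gave 3.

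With 1 array left out at a time the counts ranged from 36 to 40 for shoots against roots. In shoots they were 5 to 8, 4 to 6, 9 to 14, 13 to 19 and 11 to 13 at 1, 3, 6, 12 and 24 h, and 4 to 9 from 1 to 24 h. In roots they were 0 to 1, 7 to 8, 7 to 8, 9 to 11 and 8 to 11, and 3 to 4 from 1 to 24 h. The organ difference gave 12 to 17 at 24 h and 2 to 5 at 1 h, and any change over time 22 to 26 in shoots and 15 to 18 in roots. Arrays that moved a count by over 1.5 times were, in shoots, the second at 0.5 h or 1 h (1 h count 5), the second at 3 h (3 h count 4), the first at 0.5 h or second at 6 h (6 h count 9), and either at 1 h or the second at 24 h (counts of 4, 5 and 4 from 1 to 24 h). In roots they were the second at 0.5 h or either at 1 h (1 h count 0) and the first at 1 h or first at 24 h (count 3 from 1 to 24 h). For the 1 h organ difference they were the first shoot array at 0.5 h, the second root array at 0.5 h and the second shoot array at 1 h (3 each), and the first shoot and second root arrays at 1 h (2 each).

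For the named members, 2325 recomputed values gave 2206 with the same direction and call, 81 with a lost call, 35 with a gained call and 3 with the opposite sign. These 3 were UGT72B3 at -0.16 (adjusted p 0.59) and UGT73B1 at 0.15 (adjusted p 0.737) at 24 h in shoots with 1 h as the baseline, and UGT76E1 at 0.0911 (adjusted p 0.0389), shoots minus roots, with arrays centred on their medians. The cause was not tested. The higher and lower split moved by over 10 points with median centring for shoots against roots (21 and 23), shoots at 1 h (5 and 4) and 3 h (5 and 2), shoots from 1 to 24 h (6 and 3) and roots at 6 h (7 and 6). It did so with quantile normalization over all arrays for shoots at 1 h (4 and 3) and 3 h (5 and 2), roots at 6 h (7 and 5) and the 1 h organ difference (1 and 2), and within each organ for shoots at 1 h (4 and 3). Settings other than scaling between arrays moved the split as well. With a pseudocount of 1 it was 1 and 3 for shoots at 3 h, 6 and 8 at 6 h, and 2 and 4 from 1 to 24 h. In roots the same pseudocount gave 4 and 3 at 6 h, and 5 and 0 from 1 to 24 h.

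Same-numbered arrays did not deviate together, with correlations of -0.19 to 0.20 over 66 pairs of groups, 6 of them over 0.1. With a replicate block the counts were 38 for shoots against roots, 13 in shoots and 13 in roots at 24 h and 17 for the organ difference at 24 h. The block ended the call of UGT71C3 in shoots at 3 h (adjusted p 0.0513) and gave UGT78D1 one in roots at 24 h, at -0.55 (adjusted p 0.0481). That change of UGT78D1 was also called with a pseudocount of 1, median centring or either filter on dim probe sets (adjusted p 0.0451 to 0.0484). No member had a second probe set, so another choice of probe set changes nothing. Detection calls were not used here, so signals below 20 set no lower limit of expression, and 2 arrays a group limit all comparisons.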
